A study of Mus musculus with 12 samples.

Results

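Newly generated alpha cells were set against the non-alpha cells of the same embryonic pancreas, across all genes measured. The members were chosen by library title alone: the 4 libraries titled e17.5A, here group A, and the 4 titled e17.5N, here group N, which are 8 of the 12 libraries of the series. RNA was sequenced from cells sorted out of the dissociated pancreas of E17.5 mouse embryos, which carried Gcg-Timer. Gcg-Timer is a fluorescent timer under the glucagon gene Gcg, whose signal is first green and later red. Group A holds cells in which green dominates, which the submitters call newly generated alpha cells. Group N holds the cells they call non-alpha cells. A further 4 libraries, group B, come from cells with green and red signal, called more differentiated alpha cells, and are given below only for a few values. All 3 groups share the Gcg-Timer genotype, the tissue and the age, and the 4 replicates of a group came from different mothers. Group N is a mixture of every other cell of the organ that passed the sort, so each difference below is between 1 endocrine lineage and a mixed pool, not between an alpha cell and its progenitor.

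Alpha cells are the islet cells that make glucagon, the hormone that raises blood glucose. They arise in the fetal pancreas from epithelial progenitors that briefly express Neurog3 and then take on a hormone, the granules that store it, and the ion channels that make its release depend on electrical activity. Islet cells share much of this equipment with neurons, although they derive from endoderm, and they are known for keeping some common metabolic enzymes at low levels.

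Library totals were 18168640 to 25873608 estimated counts in A and 32114272 to 38545699 in N, with 19445 to 22038 and 22746 to 23809 genes detected. Levels are CPM, the counts scaled to library size, after TMM scaling, in the order of replicates 1 to 4, a mean is given ± SD over 4 libraries, and a change is a fitted log2 ratio of A over N with its standard error (SE), as are all amounts by which a gene "rose" or "fell". A gene was called when its edgeR quasi-likelihood p, adjusted by Benjamini-Hochberg over all 17230 genes tested, was under 0.05; both words are used only of called genes, and of A relative to N. The 10 most abundant genes took 8.608% to 12.39% of counts in A and 27.18% to 35.71% in N. TMM factors were 1.12 to 1.18 in A and 0.732 to 0.81 in N. Changes are therefore relative to the typical gene, whose median change was -0.02. With library totals alone and no factors that median was 0.545, so counts under that scaling are given beside the counts of the gene groups. Gcg, at 15389 ± 4429.8 CPM in A and 102 ± 30.9 CPM in N, checks the sort, since the reporter of Gcg set the gates.

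Of 17230 genes tested, 7763 were called (45.1%): 4099 rose (23.8%) and 3664 fell (21.3%). With library totals alone, 8243 rose and 1386 fell. When a fold change over 2 was tested, 1566 genes passed (9.09%), of which 1053 were higher (6.11%) and 513 lower (2.98%). All 4 A libraries lay above all 4 N libraries for 3793 genes (22%) and below them for 3668 (21.3%). The tails were long, with 431 called genes higher by over 3 on the log2 scale and 272 lower by over 3. Among the gene types, 238 of 1110 long noncoding RNA genes rose and 97 fell, and 3769 of 15007 protein-coding genes rose and 3426 fell. Every count of a gene list below is to be read against the shares of 23.8% and 21.3%.

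Among abundant genes whose groups did not overlap, those with the highest changes included Galnt13, an enzyme that starts O-linked glycosylation and is described mostly in brain. It had 33.7, 27.1, 34.8 and 24.6 CPM in A, against 0.0723, 0.475, 0.382 and 0.257 CPM in N (log2 change 6.66, SE 0.34, edgeR adjusted p = 8.7e-09). Wnk3, a kinase that regulates chloride cotransport, had 64.9, 55.8, 86.8 and 146 CPM in A, against 2.28, 1.58, 2.56 and 2.08 CPM in N, and C8b, a complement component made by liver, 34.4, 20.2, 25.2 and 38.5 CPM in A, against 0.434, 0.911, 0.191 and 0.77 CPM in N. All 3 were low in every N library, and Wnk3 varied most among A libraries. At the other end, the 10 lowest genes were those of red cells and granulocytes, among them Slc4a1, the anion exchanger of red cells, at 0.967 ± 0.665 CPM in A and 168 ± 77.2 CPM in N, and Ngp, a neutrophil granule protein, at 0.143 ± 0.222 CPM in A and 37.4 ± 8.24 CPM in N.

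**Figure D1:**
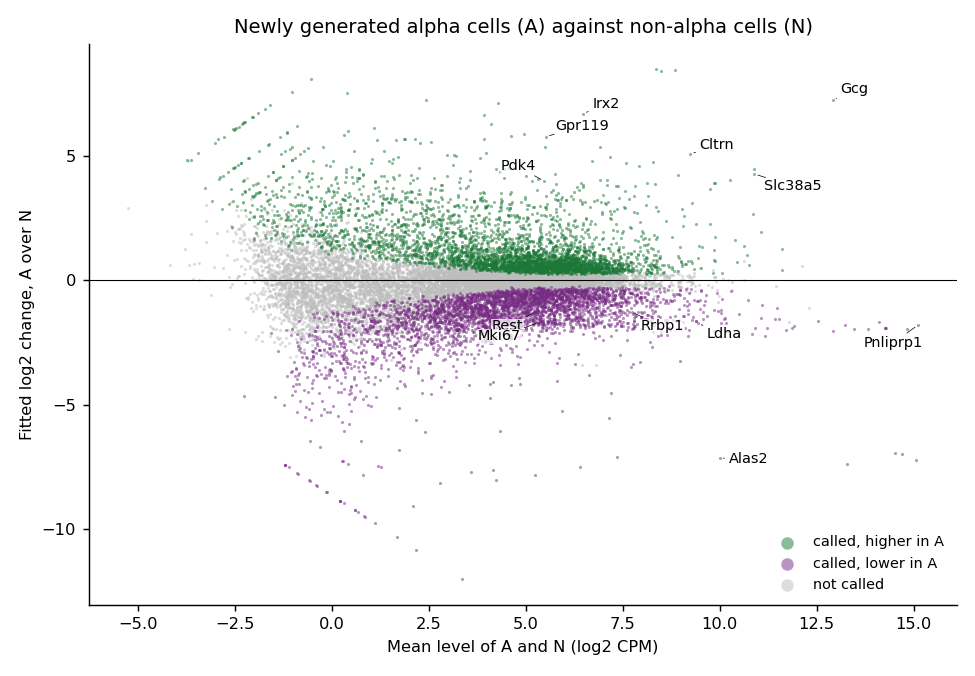
Each point is a tested gene (genes sharing a symbol are drawn once), with its mean level over A and N in log2 CPM along the horizontal axis and its fitted log2 change, A over N, on the vertical axis; green and purple points passed the test. The 4099 genes that rose include Irx2 and Gpr119 far above 0.

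The cell types left in each sort were read from 11 marker lists. Acinar markers took 6.58% ± 1.32 of counts in A and 16.5% ± 3.83 in N (exact two-sided permutation test over 70 splits, n = 4 per group, p = 0.0286, which is the minimum for 4 against 4). Without Amy2a5 and Amy2b, amylase genes whose copies may share reads, they took 5% ± 1.07 in A and 12.5% ± 2.83 in N. Erythroid markers took 0.17% ± 0.0859 in A and 14.5% ± 7.83 in N (exact permutation test, n = 4 per group, p = 0.0286). The A mean was thus 39.9% of the N mean for acinar markers and 1.17% for erythroid markers. Both shares were lower in A in all 4 replicate pairs. An exact paired test over 4 pairs gave p = 0.125 for each, the smallest it can give. N replicate 2 stood apart, with 11% acinar counts against 16.8% to 19.6% in the other N libraries and with 23% erythroid counts. Mesenchyme markers took 0.876% ± 0.425 in A and 1.79% ± 0.554 in N, and endothelium markers 0.0222% ± 0.012 in A and 0.0477% ± 0.012 in N (exact permutation test, n = 4 per group, p = 0.0571 for each), and both were lower in A in all 4 replicate pairs. Of the marker genes tested, 21 of 24 acinar, 17 of 18 mesenchyme, 11 of 14 endothelium and 9 of 16 leukocyte genes fell, with median changes of -1.94, -1.58, -1.92 and -1.72. With library totals alone 21, 8, 5 and 8 of these fell. Endothelium counted 6 without N replicate 1 and 7 without A replicate 4. Duct markers took 0.411% ± 0.0465 in A and 0.305% ± 0.0433 in N (exact permutation test, n = 4 per group, p = 0.0571), and of 15 genes 4 rose and 6 fell, with 6 and 2 under library totals alone. Of 10 mesothelium genes 9 fell and 1, Dpp4, which alpha cells are known to express, rose (9 and 1 with library totals alone). Of 13 eosinophil and granulocyte genes 10 fell and 1 rose (9 and 2 with library totals alone), and of 14 erythroid genes 11 fell (10 with library totals alone). The rising granulocyte genes numbered 0 without A replicate 1, without N replicate 4 or with the replicate block, and 2 without A replicate 3. In bulk libraries fewer cells of a type and less RNA per cell cannot be told apart.

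Markers of other endocrine cells were also measured in A; cells of these types in the sort and expression by alpha cells themselves cannot be told apart. Delta, PP and epsilon cell markers took 0.781% ± 0.0975 in A and 0.0573% ± 0.00441 in N (exact permutation test, n = 4 per group, p = 0.0286). Without Pyy and Rbp4, the most abundant of them in A and left out after the values were seen, they took 0.168% ± 0.0177 in A and 0.036% ± 0.00509 in N. Beta cell markers took 1.48%, 2.3%, 0.628% and 0.974% in A, against 0.636%, 0.68%, 0.317% and 0.325% in N, and the groups overlapped (exact permutation test, n = 4 per group, p = 0.0857). Within each of the 4 replicate pairs the A library held more beta cell counts, and an exact paired test over 4 pairs gave p = 0.125, the smallest it can give. In both groups replicates 1 and 2 held more than replicates 3 and 4. Of 15 beta cell markers 7 rose and 0 fell (13 and 0 with library totals alone), and 1 fell without N replicate 2. Nkx6-1, G6pc2 and Ffar1, described below in other groups of genes, are members of this marker list. Of 12 delta, PP and epsilon cell markers 7 rose and 2 fell (8 and 0 with library totals alone), and 1 fell without A replicate 3, A replicate 4, N replicate 1 or N replicate 3. Etv1, described below among alpha cell factors, and Arg1, described below among amino acid enzymes, are also members of this marker list. Schwann and neural crest markers took 0.0184% ± 0.00257 in A and 0.015% ± 0.00239 in N (exact permutation test, n = 4 per group, p = 0.114), and of their 12 genes 0 rose and 1, Ednrb, fell (1 and 0 with library totals alone); the fallen genes numbered 0 without A replicate 1, A replicate 3, N replicate 1 or N replicate 4, 2 without A replicate 2 or N replicate 3, and 3 with the replicate block over all libraries. Sox10, the defining factor of Schwann cells, had 1.69, 6.08, 2.17 and 2.79 CPM in A, against 4.59, 3.76, 4.74 and 5.32 CPM in N, and was not called.

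**Figure D2:**
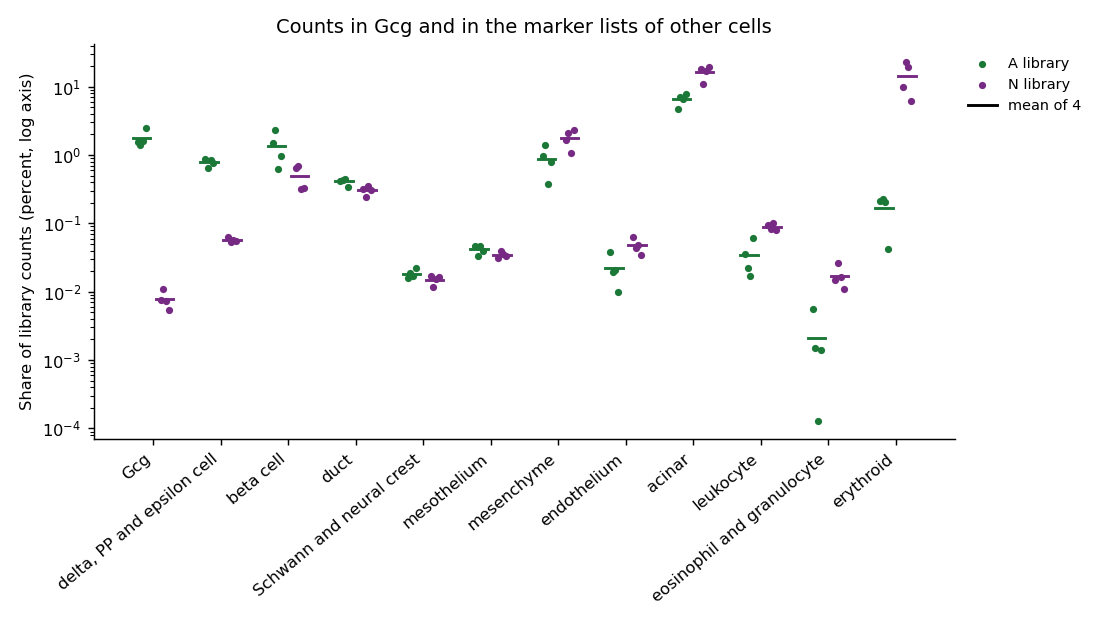
Points are the 4 libraries of A (green) and of N (purple), bars their mean, and the vertical log axis gives the percent of library counts in Gcg and in each marker list. Erythroid counts averaged 0.17% in A and 14.5% in N, acinar counts 6.58% in A and 16.5% in N, and the beta cell shares of the groups overlap.

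Across 83 tested genes of the transcription factor lists, 30 rose (36.1%) and 27 fell (32.5%), with a median of -0.20. With library totals alone 36 rose and 15 fell. Factors of the alpha lineage had the highest median change of the gene lists. Of 10 measured alpha cell factors, 9 rose and 0 fell (90% against 23.8% of all genes), with a median change of 4.20, and 9 rose with library totals alone. Pou3f4, a POU homeobox factor, had 32.9, 29.1, 37.5 and 52.8 CPM in A, against 1.45, 1.505, 2.904 and 1.57 CPM in N, and the groups lay far apart (log2 change 4.36, SE 0.27). Irx2, an Iroquois homeobox factor, had 179.7, 125, 193 and 206 CPM in A, against 1.99, 1.66, 1.99 and 1.15 CPM in N, low in every N library (log2 change 6.698, SE 0.22). Etv1, an ETS factor, had 202, 179, 272 and 262 CPM in A, against 12.9, 14.8, 14.9 and 13.1 CPM in N, with tight replicates in both groups (log2 change 4.04, SE 0.15, edgeR adjusted p = 1.4e-09). Tshz2, a zinc finger factor of the same list, overlapped between the groups at 30.8, 49.2, 33.5 and 33.9 CPM in A, against 38.2, 50.3, 28.5 and 52.1 CPM in N and was not called (edgeR adjusted p = 0.448).

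Factors shared by all islet cells rose by smaller amounts. Of 15 pan-endocrine factors 14 rose and 0 fell, with a median of 1.74, and with library totals alone all 15 rose. Neurod1, a basic helix-loop-helix factor of endocrine cells and neurons, had 217, 187, 299 and 240.2 CPM in A, against 33.5, 21.3, 33.5 and 21.1 CPM in N (log2 change 3.11, SE 0.20, edgeR adjusted p = 6.61e-08). Rfx6, needed for islet formation, had 69.7, 72.6, 79.5 and 92.4 CPM in A, against 13.8, 10.7, 16.1 and 11.5 CPM in N, a rise of 2.59 (SE 0.17). In both genes every A library lay above every N library. Nkx2-2, a homeobox factor, averaged 95.8 ± 12.2 CPM in A and 20.5 ± 4.98 CPM in N, Insm1, a zinc finger factor, 112 ± 20.02 CPM in A and 24.1 ± 8.93 CPM in N, and Foxa2, a forkhead factor also found in other endoderm, 118 ± 22.5 CPM in A and 37.8 ± 12.4 CPM in N. Their changes were 2.23 (SE 0.16), 2.22 (SE 0.24) and 1.65 (SE 0.22).

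Factors of progenitors and of other islet cells did not move together. Of 14 tested, 4 rose and 4 fell, and with library totals alone 6 rose and 0 fell. Nkx6-1, a factor of progenitors and beta cells, had 32.3, 42.4, 30.7 and 38.6 CPM in A, against 21.003, 12.4, 18.2 and 15.2 CPM in N and rose (log2 change 1.11, SE 0.17, edgeR adjusted p = 0.000193). Sox4, which acts in endocrine differentiation, had 93.8, 85.8, 90.6 and 68.3 CPM in A, against 136, 118, 139 and 134 CPM in N. All A libraries lay below all N libraries and the gene fell by 0.64 (SE 0.13), but with library totals alone its change was -0.07 and was not called. Hhex, a delta cell factor, was called lower at -0.78 (SE 0.27, edgeR adjusted p = 0.0328), with overlapping groups at 38.4, 34.6, 24.4 and 16.3 CPM in A, against 60.4, 33.4, 61.98 and 39.6 CPM in N, and lost its call without A replicate 3 or 4 or without N replicate 1 or 3 (edgeR adjusted p = 0.0747, 0.0817, 0.0917 and 0.0943). Neurog3, the transient factor of endocrine progenitors, had 31.7, 23.2, 66.9 and 18.3 CPM in A, against 39.5, 17.54, 56.6 and 26.6 CPM in N. Replicate 3 was highest and replicates 2 and 4 were lowest in both groups, and the gene was not called.

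Exocrine and stromal factors were lower. Of 15 exocrine and duct factors 10 fell and 1, Elf3, rose, with a median of -1.29 beside the acinar marker median of -1.94, and with library totals alone 7 fell and 3 rose. Ptf1a, which drives acinar genes, had 19.9, 22.1, 30.6 and 24.5 CPM in A, against 85.3, 37.8, 88.04 and 89.1 CPM in N (log2 change -1.63, SE 0.30, edgeR adjusted p = 0.000704), and Rbpjl, its partner in acinar cells, had 47.2, 79.5, 103 and 84.4 CPM in A, against 234, 260.4, 316 and 323 CPM in N. Both lay lower in every A library than in any N library. Nr5a2, a nuclear receptor of acinar cells, had 5.94, 6.55, 5.5004 and 6.85 CPM in A, against 21.3, 13.5, 21.7 and 17.6 CPM in N and Hes1, a repressor switched on by Notch, 14.04, 22.9, 19.03 and 13.4 CPM in A, against 40.3, 45.5, 40.8 and 42.9 CPM in N. Sox9, a factor of ducts and progenitors, overlapped at 98.8, 95.9, 116 and 71.5 CPM in A, against 216, 73.5, 208 and 145 CPM in N and was not called, but was called lower without N replicate 2 (log2 change -0.99, edgeR adjusted p = 0.00487). Of 20 factors of mesenchyme, endothelium and blood, 0 rose and 10 fell, with a median of -1.54 (6 fell with library totals alone). Foxf1, a forkhead factor of gut mesenchyme, averaged 1.91 ± 0.619 CPM in A and 9.94 ± 1.41 CPM in N, and Zeb1, a zinc finger repressor of epithelial genes, 11.6 ± 4.13 CPM in A and 30.5 ± 11.7 CPM in N. How far these falls follow the lower acinar and mesenchyme shares in A was not tested.

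**Figure D3:**
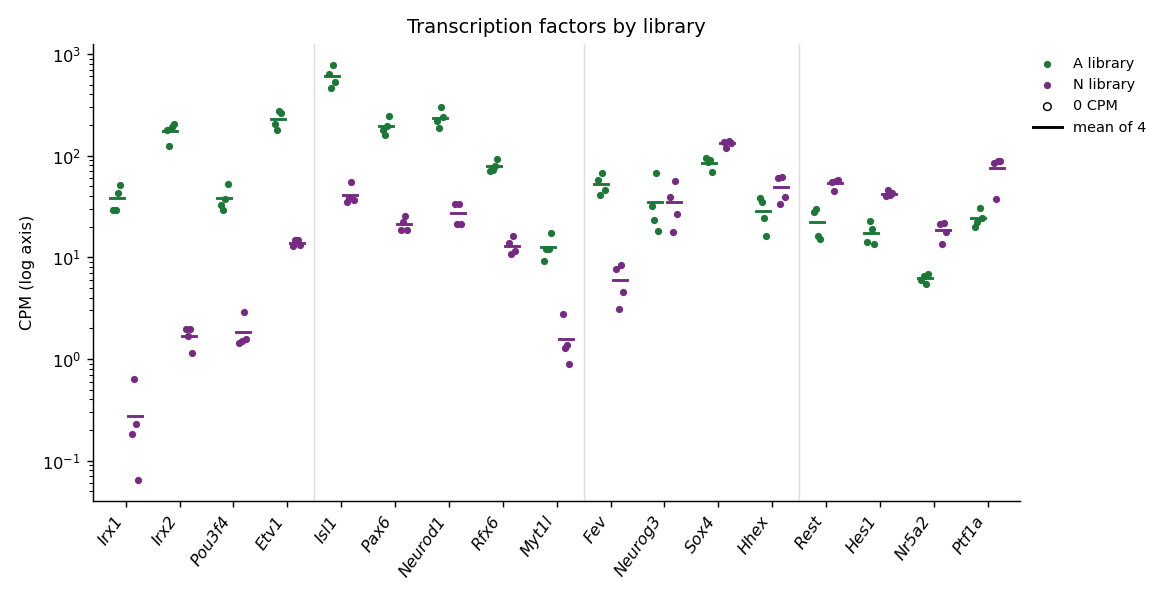
Points are libraries of A (green, left of each pair) and N (purple), bars their means, on a log axis of CPM; an open circle is a library at 0. Alpha factors (Irx1 to Etv1) and the pan-endocrine and neuronal factors Isl1 to Myt1l stand higher in A without overlap, Neurog3 and Hhex overlap, and Rest, Hes1, Nr5a2 and Ptf1a stand lower in A.

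The machinery of hormone processing and release rose in its late steps. Across 187 tested genes of 7 secretion lists, 79 rose (42.2%) and 35 fell (18.7%), and with library totals alone 121 rose and 9 fell. Of 13 prohormone processing enzymes 6 rose and 0 fell (10 and 0 with library totals alone). Pcsk1n, an inhibitor of the convertases, had 94.4, 123, 101 and 152 CPM in A, against 16.3, 11.3, 13.5 and 8.72 CPM in N (log2 change 3.24, SE 0.27, edgeR adjusted p = 9.54e-07). Pcsk1, the convertase best known from beta cells, had 406, 485, 264 and 270.1 CPM in A, against 143, 133, 98.8 and 97.6 CPM in N. It rose by 1.59 (SE 0.22), with the higher levels in replicates 1 and 2 of both groups. Beta cell markers, too, took more counts in replicates 1 and 2 of both groups, and their part in this rise was not tested. Cpe, the carboxypeptidase that trims hormone ends, averaged 3224 ± 381 CPM in A and 509.7 ± 61.2 CPM in N. With 1 library left out, 1 member fell without A replicate 4. Ctsb, a lysosomal protease, averaged 639 ± 51.2 CPM in A and 550.0 ± 32.8 CPM in N, and Ctsl, another, 327 ± 50.9 CPM in A and 363 ± 40.8 CPM in N, neither called (edgeR adjusted p = 0.0947 and 0.381).

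Granule cargo and membrane proteins rose widely, with 16 of 23 up, 3 down and a median of 2.20 (18 and 0 with library totals alone). Cltrn, the collectrin gene (ENSMUSG00000015401.13, chromosome X, 162871826 to 162901856 in GRCm39), had 1310.0, 919.7, 1151 and 1325 CPM in A, against 33.5, 51.995, 25.7 and 28.5 CPM in N and the largest rise of the list (log2 change 5.07, SE 0.24, edgeR adjusted p = 5.76e-09). Ap3b2, an adaptor subunit otherwise typical of neurons, had 107, 118, 108 and 114 CPM in A, against 10.4, 10.7, 12.1 and 10.6 CPM in N. Replicates of both genes were close and the groups far apart. Slc30a8, the zinc carrier of insulin granules, had 222, 233, 164 and 238 CPM in A, against 41.5, 45.7, 25.9 and 23.1 CPM in N (log2 change 2.65, SE 0.23). The granins Chga, Chgb and Scg2, acidic proteins packed with hormones, averaged 1425 ± 346, 876 ± 249 and 652 ± 55.4 CPM in A, against 295 ± 66.6, 191 ± 40.7 and 125 ± 27.3 CPM in N. Slc18a1, which loads monoamines into granules, rose, with 15.4 ± 4.95 CPM in A and 3.57 ± 0.99 CPM in N. Sypl, a synaptophysin relative of ordinary vesicles, fell by 0.75 (SE 0.17) with 121, 107, 117 and 116 CPM in A, against 232, 124, 212 and 209 CPM in N, and was not called with library totals alone (-0.18). Without A replicate 1 the members that fell numbered 1 instead of 3.

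Of 37 docking and exocytosis genes 22 rose and 3 fell, with a median of 1.35 (24 and 3 with library totals alone). Snap25, a SNARE protein of nerve terminals and islet cells, had 70.4, 54.7, 55.8 and 65.6 CPM in A, against 8.89, 10.02, 11.7 and 8.72 CPM in N (log2 change 2.65, SE 0.14, edgeR adjusted p = 1.52e-08). Stx1a, a plasma membrane SNARE, had 30.4, 29.4, 31.9 and 35.9 CPM in A, against 5.68, 6.81, 7.604 and 6.41 CPM in N and rose by 2.27 (SE 0.12). Syt7, a calcium sensor of release, had 49.9, 52.4, 58.8 and 71.5 CPM in A, against 9.22, 5.74, 7.83 and 5.96 CPM in N, and Syt13, a synaptotagmin enriched in islets, 1150.0, 820.5, 1291 and 1227 CPM in A, against 147, 116, 142 and 119 CPM in N. For all these genes A lay above N by more than the spread of either group. Rab3d, a small GTPase of exocrine granules, had 299, 301, 381 and 352 CPM in A, against 441, 174, 459 and 413 CPM in N and was not called, but was lower without N replicate 2 (log2 change -0.39, edgeR adjusted p = 0.0075). Among 15 synaptotagmins 9 rose and 1 fell (10 and 0 with library totals alone), and among 58 Rab GTPases 26 rose and 10 fell (38 and 6 with library totals alone). The synaptotagmin that fell, Syt15, lost its call without A replicate 1 or 4 or without N replicate 1 or 3 (edgeR adjusted p = 0.068, 0.0608, 0.0832 and 0.0506).

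The hormone genes themselves reached beyond glucagon. Of 28 tested peptide precursors 14 rose and 2 fell, with a median of 1.41 (18 and 1 with library totals alone); the falling members numbered 4 without A replicate 1 or 2, and 1 without A replicate 4, N replicate 2 or N replicate 4, and 5 with the replicate block over all libraries. Gast, the gastrin gene, had 34.97, 42.98, 57.2 and 56.8 CPM in A, against 0.687, 1.07, 1.34 and 0.417 CPM in N (log2 change 5.78, SE 0.37, edgeR adjusted p = 6.54e-08). Ghrl, which encodes ghrelin, had 399.8, 408, 485 and 556 CPM in A, against 11.8, 21.9, 22.2 and 21.6 CPM in N, and Pyy, which encodes peptide YY, 3902, 2982, 3870.0 and 3559.8 CPM in A, against 179, 164, 154 and 148 CPM in N. In all 3, every A library lay far above every N library. Ppy, the pancreatic polypeptide gene, averaged 311 ± 86.4 CPM in A and 22.2 ± 4.83 CPM in N. Sst, the somatostatin gene, had 413, 258, 119 and 196 CPM in A, against 220.1, 157, 191 and 159 CPM in N, overlapped between groups and was not called (edgeR adjusted p = 0.297), though it was called higher with library totals alone. Ins2, the more abundant insulin gene, had 5782, 10522, 1695 and 3417 CPM in A, against 4936, 4712, 2440.3 and 2304 CPM in N, again highest in replicates 1 and 2 of both groups, and was not called (edgeR adjusted p = 0.306). Per length, in the authors' TPM averaged over A, Pyy stood at 20606, Iapp at 10335, Ghrl at 2983, Ppy at 2168 and Gast at 379.

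The early secretory pathway went the other way. Of 31 genes for entry into the endoplasmic reticulum 1 rose and 16 fell, with a median of -0.37, and with library totals alone the direction turned, with 11 up and 2 down. Without N replicate 2, 21 fell, and without A replicate 3 and N replicate 3 together, 10. Ssr3, a subunit of the translocon-associated complex, had 352, 442, 353 and 355 CPM in A, against 795, 688, 733 and 850.4 CPM in N, and Sec11c, a signal peptidase subunit, 64.4, 75.1, 61.6 and 55.1 CPM in A, against 108, 176, 118 and 111 CPM in N. Both fell, with changes of -1.03 (SE 0.12) and -1.001 (SE 0.19) on the log2 scale, although N replicate 2 was the highest library for Sec11c, whose call was lost with library totals alone. Rrbp1, a ribosome receptor of rough endoplasmic reticulum in secretory cells, had 104, 141, 114 and 136 CPM in A, against 345, 186, 330.0 and 336 CPM in N, and N replicate 2, the library with fewest acinar counts, lay nearest to A. Sec61a1, the pore subunit, had 532, 566, 479 and 532 CPM in A, against 1074, 475, 1021 and 1035 CPM in N, with the same outlying library within the A range. It fell by 0.77 (SE 0.21), a call lost without A replicate 3 and N replicate 3 together (edgeR adjusted p = 0.0607) and with library totals alone. Ddost, a subunit of the glycosylation complex, was not called, at 1074, 1012, 1037 and 802 CPM in A, against 909, 825, 909 and 914 CPM in N. Acinar markers, of cells with abundant endoplasmic reticulum, had a median change of -1.94 in the same libraries, and their part in these falls was not tested.

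Of 35 genes for transport to the Golgi 4 rose and 11 fell, with a median of -0.07 (21 up and 3 down with library totals alone), and 7 fell without A replicate 1, A replicate 3 or N replicate 4. Tmed6, a cargo receptor rich in exocrine pancreas, had 113, 132, 133 and 127 CPM in A, against 415, 491, 398 and 395 CPM in N (log2 change -1.75, SE 0.22, edgeR adjusted p = 3.59e-05), and Mcfd2, a subunit of another cargo receptor, 131, 179, 157 and 162 CPM in A, against 277, 299, 295 and 323 CPM in N. Every A library lay below every N library for both. Tmed4, of the same family as Tmed6, rose with 284, 247, 288 and 224 CPM in A, against 166, 128, 162 and 167 CPM in N (log2 change 0.74, SE 0.12). Without A replicate 4 the rising members numbered 2.

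The proton pump that acidifies granules rose as a group, with 16 of 20 subunits up, 0 down and a median of 0.64 (19 up with library totals alone, and 1 down without N replicate 2). Atp6v1b2, the catalytic-ring B subunit of neurons and endocrine cells, had 426, 337, 388 and 403 CPM in A, against 128, 87.5, 123 and 117 CPM in N (log2 change 1.77, SE 0.13, edgeR adjusted p = 3.29e-07). Atp6v0e2, a membrane subunit, had 108, 80.8, 106 and 89.5 CPM in A, against 14.6, 14.2, 14.1 and 13.6 CPM in N, whereas its close relative Atp6v0e had 110.1, 109, 113 and 86.3 CPM in A, against 84.7, 112, 74.2 and 80.3 CPM in N and was not called. The pair thus differed in A over N by 2.76 against 0.25 on the log2 scale, although without N replicate 2 Atp6v0e was called higher at 0.39. Atp6v1a, the A subunit of the ring, had 95.3, 81.4, 88.4 and 90.6 CPM in A, against 99.8, 70.4, 102 and 104 CPM in N and was not called (edgeR adjusted p = 0.603).

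**Figure D4:**
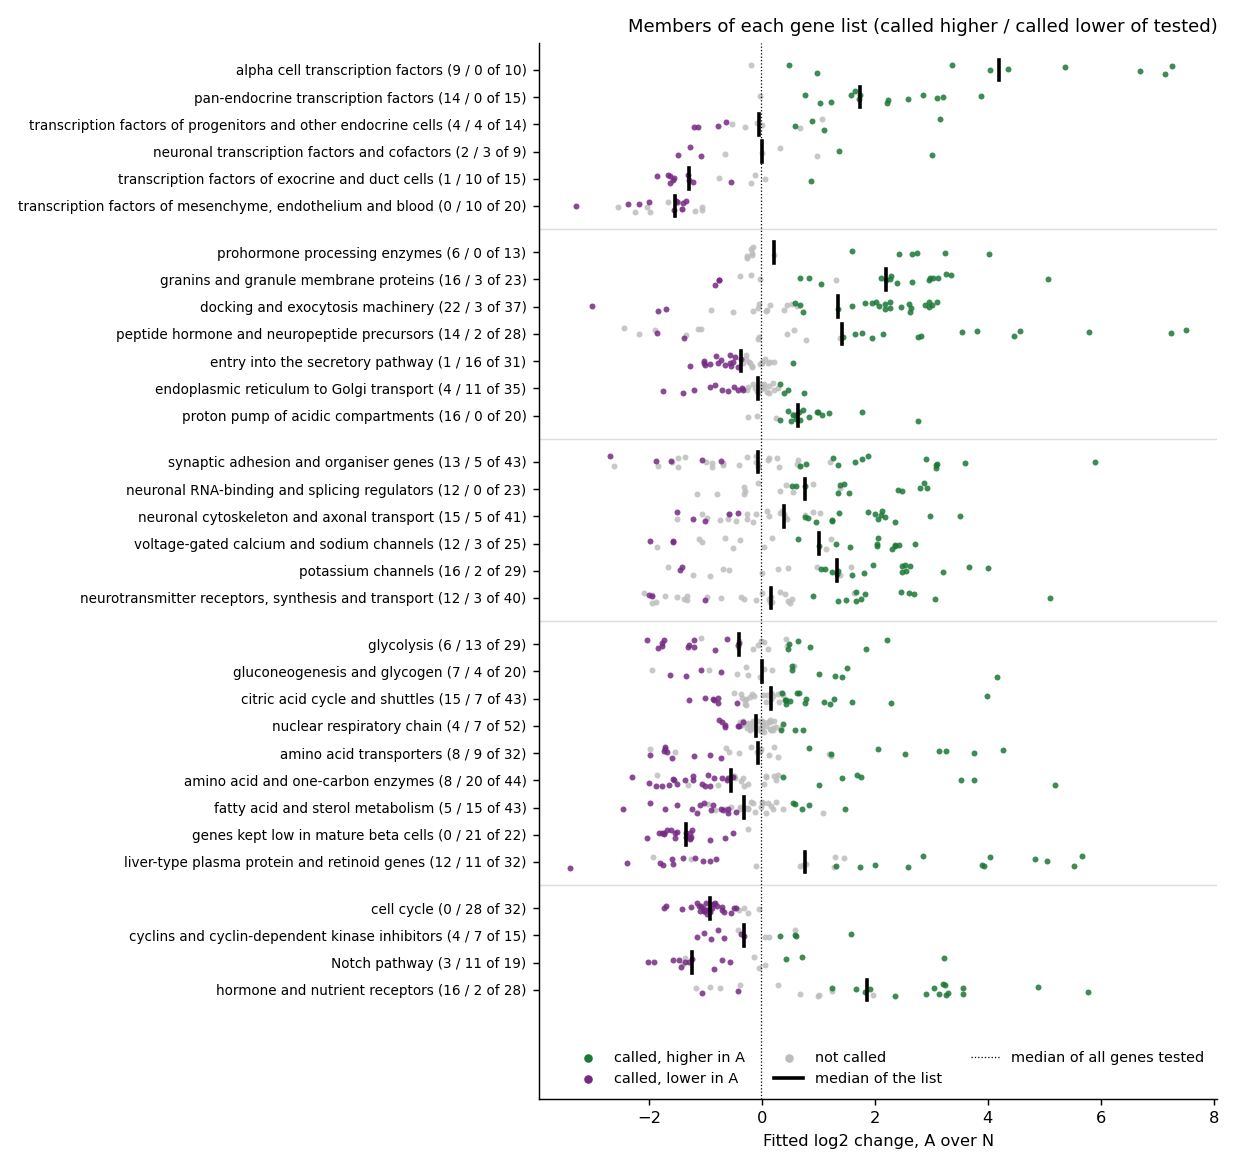
Each row is a gene list, each point a tested member at its fitted log2 change, A over N; green members rose, purple members fell, black bars are list medians and the dotted line is the median of all genes, -0.02. Granins, exocytosis, ion channel and receptor lists have medians to the right of the line, and cell cycle genes and the genes kept low in mature beta cells have medians to its left.

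Genes usually described in neurons were gained in part. Across 201 tested genes of 6 lists, 80 rose (39.8%) and 18 fell (8.96%), with a median of 0.44, and with library totals alone 102 rose and 6 fell. Without N replicate 4, 11 fell. Rest, which represses neuronal genes in non-neuronal cells, fell by 1.27 (SE 0.26; edgeR adjusted p = 0.00167), with 27.7, 29.6, 16.01 and 15.2 CPM in A, against 55.6, 45.1, 55.8 and 57.4 CPM in N. Each A library lay below each N library, and A replicates 3 and 4 were lowest. The mesenchyme share of A was also lowest in replicates 3 and 4, at 0.951%, 1.4%, 0.372% and 0.781%. In N it was 1.67%, 2.11%, 1.07% and 2.32%, lowest in replicate 3, whereas Rest was lowest in N replicate 2. The part of mesenchyme in the fall of Rest was not tested. Myt1l, a zinc finger factor of neurons, had 9.13, 11.9, 12.2 and 17.3 CPM in A, against 2.75, 1.27, 1.38 and 0.898 CPM in N and rose (log2 change 3.004, SE 0.34, edgeR adjusted p = 1.57e-05). Cux2, a homeobox factor of cortical neurons, averaged 9.24 ± 1.796 CPM in A and 3.604 ± 0.598 CPM in N, Zbtb18, a transcriptional repressor found in neurons, 6.81 ± 1.35 CPM in A and 14.4 ± 1.16 CPM in N, and Bcl11a, a zinc finger factor, 11.02 ± 3.23 CPM in A and 10.97 ± 1.34 CPM in N. Cux2 rose, Zbtb18 fell and Bcl11a was not called. Of 20 neuronal factors and cofactors listed, 11 did not pass the expression filter and 9 were tested. Of these 9, 2 rose and 3, Rest among them, fell, with 3 and 2 under library totals alone.

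The RE1 element that REST binds was looked for in promoters as letters only, after the values of Rest had been seen. The search used the 6-base blocks AGCACC and GGACAG with 2 free bases between them, on both strands, in the window from 250 bases before to 50 after each RefSeq start (build GRCm38.p6). It found the motif in 17 of 32851 promoters (0.0517%). Of 12438 tested genes with a promoter 10 held it (0.0804%): Gad2, Gria2, Fam163b, Osbp2, Ogdhl, Sptbn4, Robo2, Lca5 and Scamp5 rose, Fbll1 was not called and 0 fell, while 3161 of the 12438 rose (25.4%) and 2717 fell (21.8%). The motif stood in the promoters of 16 genes, of which 10 were tested. Gad2 (0.163 CPM in A, 0 in N), Fam163b (0.662 and 0.114) and Fbll1 (0.282 and 0.0838) averaged below 1 CPM, where a few counts decide the change. The expression filter used all libraries, so genes this low in A and N may have been tested only for their level in B, the other alpha group. Their directions are therefore not to be set against the 25.4%. A match is a description of the letters and not a site of binding. Any part of Rest in these changes was not tested. No other motif was searched. The 5 windows printed here belong to the genes that rose by over 1 on the log2 scale with a mean above 1 CPM in A, 100 bases each, 5′ to 3′ on the gene's strand from RefSeq, with the motif in capitals.
Gria2: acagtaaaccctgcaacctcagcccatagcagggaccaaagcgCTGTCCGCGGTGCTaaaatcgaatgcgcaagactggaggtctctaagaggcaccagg
Osbp2: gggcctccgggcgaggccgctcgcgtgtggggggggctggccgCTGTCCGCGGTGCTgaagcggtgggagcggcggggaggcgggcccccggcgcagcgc
Ogdhl: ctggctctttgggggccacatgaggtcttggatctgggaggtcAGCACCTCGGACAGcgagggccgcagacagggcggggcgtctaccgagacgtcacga
Sptbn4: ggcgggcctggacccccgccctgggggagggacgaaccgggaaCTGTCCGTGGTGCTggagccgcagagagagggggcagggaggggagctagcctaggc
Robo2: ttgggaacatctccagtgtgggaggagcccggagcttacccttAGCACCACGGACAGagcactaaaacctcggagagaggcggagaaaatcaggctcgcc
These lie at chr3:80802949-80803048 (minus strand), chr11:3774751-3774850 (minus), chr14:32321874-32321973 (plus), chr7:27396240-27396339 (minus) and chr16:75447313-75447412 (minus). In Ogdhl and Robo2 the blocks read on the gene's own strand, and in Gria2, Osbp2 and Sptbn4 on the opposite one. The motif starts 170 bases before the RefSeq start used for Gria2 and 76 before that used for Robo2. These RefSeq starts need not be the start of the counted gene. The counted Robo2 gene spans 73688727 to 74208713 on chromosome 16 in GRCm39, and the window printed for Robo2 lies far outside that span. Positions of the 2 builds were not converted.

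Gria2, an AMPA glutamate receptor subunit, had 33.2, 30.96, 38.1 and 44.4 CPM in A, against 3.22, 6.45, 4.39 and 3.59 CPM in N (log2 change 3.06, SE 0.23, edgeR adjusted p = 2.92e-07). Osbp2, an oxysterol-binding protein, had 6.23, 3.44, 5.37 and 6.75 CPM in A, against 0.831, 0.99, 0.688 and 1.48 CPM in N, and Ogdhl, a brain-type subunit of oxoglutarate dehydrogenase, 44.05, 27.8, 12.2 and 25.8 CPM in A, against 9.18, 4.28, 5.08 and 4.04 CPM in N. The A libraries stood above the N libraries in all 3, with A replicate 3 lowest for Ogdhl. Sptbn4, a spectrin of axons, averaged 4.08 ± 1.42 CPM in A and 1.11 ± 0.609 CPM in N and Robo2, a guidance receptor, 46.2 ± 13.7 CPM in A and 18.7 ± 5.75 CPM in N. Their rises were 1.88 (SE 0.54) and 1.304 (SE 0.29), and the rise of Sptbn4 lost its call without A replicate 3 and N replicate 3 together (edgeR adjusted p = 0.0511).

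Splicing and RNA-binding regulators typical of neurons rose in 12 of 23 cases with 0 falling (16 and 0 with library totals alone; 1 fell without N replicate 2). Celf3, an RNA-binding protein of brain and islets, had 33.6, 40.9, 35.5 and 51.8 CPM in A, against 5.64, 5.19, 6.95 and 3.69 CPM in N (log2 change 2.92, SE 0.21, edgeR adjusted p = 2.15e-07), Celf6 10.5, 9.57, 12.4 and 7.82 CPM in A, against 1.48, 0.99, 1.83 and 1.15 CPM in N, and Celf4 22.4, 21.9, 27.6 and 27.9 CPM in A, against 4.81, 5.54, 3.82 and 4.52 CPM in N. Every A library exceeded every N library for the 3. Celf2, a relative that is not brain-restricted, fell with 50.4, 64.3, 44.05 and 51.2 CPM in A, against 82.6, 97.97, 72.8 and 92.8 CPM in N (log2 change -0.72, SE 0.16), although with library totals alone it was not called (-0.16). Ptbp1, the splicing repressor of non-neuronal cells, did not separate at 180.5, 205, 219 and 209 CPM in A, against 245, 184, 211 and 213 CPM in N (edgeR adjusted p = 0.616), and was called higher with library totals alone. Khdrbs3, a splicing factor of brain, averaged 86.03 ± 16.9 CPM in A and 15.4 ± 1.77 CPM in N.

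Of 41 cytoskeletal and axonal genes 15 rose and 5 fell (23 and 0 with library totals alone); the falling members numbered 2 without A replicate 3, A replicate 4 or N replicate 2 and 3 without N replicate 1 or 4. Nefm, the medium neurofilament, had 96.004, 79.1, 133 and 108 CPM in A, against 7.95, 8.28, 12.2 and 8.11 CPM in N (log2 change 3.51, SE 0.19, edgeR adjusted p = 1.77e-08), and Map1b, a microtubule protein of growing axons, 327, 241, 448 and 345 CPM in A, against 81.8, 73.9, 78.5 and 78.3 CPM in N. Gprin1, an inducer of neurite growth, averaged 73.1 ± 7.06 CPM in A and 9.25 ± 0.875 CPM in N and Map6, which stabilises microtubules, 36.8 ± 4.699 CPM in A and 7.21 ± 1.83 CPM in N. Stmn1, which destabilises microtubules and is high in dividing cells, went lower with 111, 125, 82.5 and 82.04 CPM in A, against 169.7, 267, 183 and 180.1 CPM in N (log2 change -0.9996, SE 0.19), and was not called with library totals alone. Tuba1a, a neuronal tubulin, overlapped at 1259.8, 1024, 1079.7 and 801 CPM in A, against 637, 1113, 587 and 810.4 CPM in N but was called higher without N replicate 2 (log2 change 0.62, edgeR adjusted p = 0.0135).

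Synaptic adhesion genes were divided. Of 43 tested, 13 rose and 5 fell, and their median was -0.06 beside -0.02 for all genes (16 and 2 with library totals alone). Cadm2, a synaptic cell adhesion molecule, had 5.38, 2.36, 5.15 and 4.24 CPM in A, against 0.398, 0.436, 0.306 and 0.257 CPM in N, and Nfasc, which organises the axon initial segment, 43.8, 36.7, 38.6 and 50.01 CPM in A, against 7.48, 5.504, 5.01 and 4.68 CPM in N. Both rose by over 2 on the log2 scale, at 3.604 (SE 0.37) and 2.898 (SE 0.18). Ncam1, found on neurons and islet cells, averaged 141 ± 7.53 CPM in A and 55.3 ± 12.4 CPM in N. Ptprs, a receptor phosphatase, averaged 106 ± 23.4 CPM in A and 220.4 ± 47.2 CPM in N and fell by 1.06 (SE 0.24), a call lost with library totals alone (log2 change -0.50, edgeR adjusted p = 0.0895).

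Ion channels that couple the membrane to release rose in part. Of 25 voltage-gated calcium and sodium channel genes 12 rose and 3 fell, with a median of 1.02 (13 and 0 with library totals alone); the falling members numbered 1 without A replicate 1, A replicate 2, N replicate 1 or N replicate 2, and 0 without N replicate 4. Cacnb2, a calcium channel β subunit, had 28.97, 28.3, 25.99 and 32.03 CPM in A, against 5.097, 3.9996, 5.35 and 3.21 CPM in N (log2 change 2.71, SE 0.17, edgeR adjusted p = 5.97e-08). Cacna1a, the pore of P/Q-type channels, had 19.99, 22.9, 22.5 and 29.8 CPM in A, against 8.31, 7.76, 9.13 and 7.06 CPM in N, and Scn3a, a sodium channel pore of embryonic neurons and islets, 27.1, 22.7, 24.1 and 27.4 CPM in A, against 5.17, 3.17, 5.54 and 5.003 CPM in N. All were separated from N. Cacna1h, a T-type pore, had 16.99, 19.5, 12.1 and 17.2 CPM in A, against 17.1, 17.1, 17.3 and 12.6 CPM in N, and the groups overlapped.

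Of 29 potassium channel genes 16 rose and 2 fell, with a median of 1.33 (18 and 2 with library totals alone). Kcnh6, an ERG-type channel, had 63.1, 62.2, 68.98 and 72.8 CPM in A, against 3.29, 4.198, 5.92 and 3.24 CPM in N (log2 change 4.01, SE 0.20, edgeR adjusted p = 6.44e-09). Kcnk16, a background potassium channel of islets, had 181, 144, 146 and 161 CPM in A, against 36.4, 20.6, 30.5 and 26.04 CPM in N, and Kcnj11, the pore of the ATP-sensitive channel, 57.8, 44.96, 59.3 and 59.8 CPM in A, against 10.9, 6.85, 12.5 and 7.76 CPM in N. Kcnma1, the large calcium-activated channel, averaged 44.4 ± 6.83 CPM in A and 7.68 ± 0.662 CPM in N. The 4 genes rose without overlap. Kcnk1, of the same family, had 88.7, 87.9, 89.1 and 87.5 CPM in A, against 110.1, 46.4, 103 and 92.8 CPM in N. Its A libraries were close together and the N libraries spread around them. Kcnq1, a channel of exocrine epithelia and other tissues, fell by 1.41 (SE 0.35) with 17.4, 24.7, 29.3 and 21.01 CPM in A, against 81.8, 25.3, 79.6 and 59.3 CPM in N, N replicate 2 lying within the A range. Of 40 neurotransmitter genes 12 rose and 3 fell, with a median of 0.16 (16 and 2 with library totals alone, and 6 down with the replicate block over all libraries), and Chrnb2, a nicotinic receptor subunit, averaged 14.5 ± 4.33 CPM in A and 2.37 ± 1.03 CPM in N.

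Metabolism changed in both directions. Across 310 tested genes of 9 lists, 65 rose (21%) and 102 fell (32.9%), with a median of -0.20. With library totals alone 146 rose and 47 fell, so the balance of the whole turned with the scaling. The 9 lists include liver-type plasma protein genes and the genes kept low in mature beta cells, not all of which are metabolic. Of the latter 21 of 22 fell, and these falls are part of the total. Of 29 glycolysis genes 6 rose and 13 fell (10 and 5 with library totals alone). The hexokinases of most tissues were among those that fell. Hk1 had 12.8, 15.5, 14.3 and 12.3 CPM in A, against 48.2, 46.1, 45.02 and 48.7 CPM in N and fell by 1.78 (SE 0.22), and Hk2 had 3.18, 10.9, 2.79 and 8.99 CPM in A, against 28.3, 16.2, 26.9 and 21.9 CPM in N and fell by 1.85 (SE 0.47).

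Of 20 gluconeogenesis and glycogen genes 7 rose and 4 fell (11 and 2 with library totals alone). Gys2, the liver glycogen synthase, averaged 0.909 ± 0.181 CPM in A and 0.0476 ± 0.0754 CPM in N, and G6pc2, an islet glucose-6-phosphatase, 95.1 ± 41.3 CPM in A and 33.5 ± 13.5 CPM in N. Both rose, and Pygb, the brain-type glycogen phosphorylase, fell, at 72.8 ± 5.79 CPM in A and 153 ± 25.8 CPM in N. Gys2 averaged below 1 CPM, where a few counts decide the change. G6pc2 is on the beta cell marker list, and the part of beta cells in its rise was not tested.

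The last steps of glycolysis split as well. Pklr, the pyruvate kinase of liver and islets, had 17.9, 13.9, 14.9 and 20.1 CPM in A, against 5.28, 2.77, 6.38 and 4.27 CPM in N and rose by 1.84 (SE 0.22). Ldha, which turns pyruvate into lactate, had 293, 336, 344 and 309 CPM in A, against 1160.3, 834, 1124 and 1134 CPM in N, and Slc16a1, a lactate and pyruvate carrier, 16.9, 19.2, 17.6 and 13.8 CPM in A, against 71.8, 61.1, 77.6 and 64.5 CPM in N. Every A library lay below every N library in both, and both fell, with changes of -1.73 (SE 0.26) and -2.03 (SE 0.15). They belong to a list of 22 genes known to be kept low in mature beta cells, of which 21 fell and 0 rose (14 and 0 with library totals alone), with a median of -1.35. Several of these 22, such as Pdgfra and Cxcl12, are also mesenchyme genes, whose marker median was -1.58, and the part of those cells was not tested.

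Entry of pyruvate into the citric acid cycle and the shuttles moved by gene. Of 43 such genes 15 rose and 7 fell, with a median of 0.16 (30 and 0 with library totals alone), and without N replicate 2, 12 fell. Pdk4, a kinase that switches off pyruvate dehydrogenase, had 100.03, 56.5, 64.8 and 111 CPM in A, against 6.25, 5.78, 2.29 and 6.61 CPM in N (log2 change 3.98, SE 0.32, edgeR adjusted p = 6.22e-07). Pdk1, a kinase with the same substrate, had 72.6, 76.5, 74.9 and 80.3 CPM in A, against 152, 93.3, 146 and 153 CPM in N and fell by 0.84 (SE 0.15). Slc25a12, an aspartate-glutamate carrier of excitable tissues, had 63.8, 63.3, 65.2 and 73.6 CPM in A, against 28.8, 30.8, 31.7 and 32.1 CPM in N, while its liver-type relative Slc25a13 had 18.8, 28.04, 31.4 and 22.5 CPM in A, against 59.4, 34.7, 58.7 and 49.2 CPM in N. In both pairs 1 member rose and the other fell without overlap; with library totals alone Pdk1 (-0.27) and Slc25a13 (-0.43) were not called. Gpd1 and Gpd2, the enzymes of the glycerol phosphate shuttle, averaged 41.4 ± 1.95 and 87.3 ± 11.6 CPM in A, against 13.7 ± 4.03 and 36.1 ± 7.41 CPM in N. Acly, which makes cytosolic acetyl-CoA from citrate, had 1286, 1226, 1235 and 1431 CPM in A, against 648, 375, 613 and 606 CPM in N (log2 change 1.21, SE 0.16, edgeR adjusted p = 7.08e-05). Cs, citrate synthase, overlapped at 122, 141, 147 and 131 CPM in A, against 169.9, 110.0, 174 and 157 CPM in N, and without N replicate 2 was called lower at -0.30.

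Subunits of the respiratory chain had no common direction. Of 52 nuclear-encoded subunits 4 rose and 7 fell, with a median of -0.10, and with library totals alone 36 rose and 0 fell. Without A replicate 1, 2 rose, and without A replicate 4, 4 fell. Atp5b, the catalytic subunit of ATP synthase, had 1603, 1473, 1783 and 1426 CPM in A, against 1649, 1250.2, 1755 and 1615 CPM in N. Cox5a, of complex IV, fell with 43.7, 49.01, 48.3 and 39.5 CPM in A, against 73.7, 66.4, 78.5 and 65.8 CPM in N (log2 change -0.66, SE 0.13), and was not called with library totals alone.

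Some amino acid transporters moved far. Of 32 amino acid transporters 8 rose and 9 fell (13 and 7 with library totals alone). Slc38a5, a glutamine transporter (ENSMUSG00000031170.15, chromosome X, 8137372 to 8146418 in GRCm39), had 3168, 3045, 4414 and 3844 CPM in A, against 212, 122, 220.5 and 193 CPM in N (log2 change 4.27, SE 0.22, edgeR adjusted p = 8.73e-09). Slc16a10, an aromatic amino acid carrier, had 99.4, 83.5, 83.5 and 121 CPM in A, against 10.3, 13.7, 9.48 and 6.89 CPM in N, and Slc7a2, a carrier of arginine and lysine, 152, 126, 149.6 and 192 CPM in A, against 22.6, 15.999, 17.04 and 15.3 CPM in N. Slc7a14, an SLC7 family member, averaged 149 ± 21.6 CPM in A and 11.003 ± 1.08 CPM in N. These 4 rose by 3.13 to 4.27 on the log2 scale, and their groups did not overlap. Slc38a10, a widely expressed member, had 403, 449, 384 and 419 CPM in A, against 519, 257, 483 and 498 CPM in N and was not called in the fit of all libraries, but was called lower without N replicate 2 (log2 change -0.27, edgeR adjusted p = 0.0267).

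Of 44 amino acid and one-carbon enzymes 8 rose and 20 fell (14 and 11 with library totals alone). Gls2, liver-type glutaminase, had 5.34, 5.66, 6.03 and 5.96 CPM in A, against 28.99, 11.2, 22.6 and 29.1 CPM in N and fell by 1.999 (SE 0.31). Glud1, which oxidises glutamate in mitochondria, averaged 401 ± 40.1 CPM in A and 149 ± 12.1 CPM in N. Arg1, cytosolic arginase, averaged 49.03 ± 13.6 CPM in A and 15.2 ± 5.59 CPM in N and Arg2, the mitochondrial form, 1.38 ± 0.576 CPM in A and 6.79 ± 0.958 CPM in N, with changes of 1.69 (SE 0.25) and -2.29 (SE 0.43). Of this pair, too, 1 rose and the other fell. The serine synthesis enzyme Phgdh had 129.7, 161, 183 and 149 CPM in A, against 446, 345, 531 and 502 CPM in N (log2 change -1.55, SE 0.22, edgeR adjusted p = 0.000117), and Asns, asparagine synthetase, 151, 179, 220.3 and 179.6 CPM in A, against 510.2, 209.7, 473 and 498 CPM in N, with N replicate 2 near the A libraries. Acinar markers, of a cell type rich in both enzymes, were lower in A by a median of 1.94, as given above; their part in these falls was not tested.

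Of 43 fatty acid and sterol genes 5 rose and 15 fell (18 and 8 with library totals alone). Cpt2, which passes fatty acids into mitochondrial oxidation, had 178, 147, 205 and 168 CPM in A, against 64.9, 47.8, 73.9 and 65.5 CPM in N (log2 change 1.47, SE 0.14, edgeR adjusted p = 2.97e-06), and Hadhb, of the trifunctional oxidation enzyme, averaged 199 ± 25.9 CPM in A and 112 ± 4.69 CPM in N. Acaa2, a thiolase of the same oxidation, fell instead, without overlap. It averaged 75.5 ± 7.67 CPM in A and 179 ± 23.3 CPM in N (log2 change -1.25, SE 0.13). Insig1, a regulator of sterol synthesis, had 77.9, 107, 90.1 and 96.3 CPM in A, against 356, 234, 310.0 and 322 CPM in N, and Scd2, a fatty acid desaturase, 522, 630.0, 490.0 and 705 CPM in A, against 2044, 887, 1887 and 1828 CPM in N. Both fell without overlap, with changes of -1.72 (SE 0.20) and -1.501 (SE 0.22). Fasn, fatty acid synthase, overlapped at 199, 157, 126 and 263 CPM in A, against 302, 172, 248 and 256 CPM in N, and was called lower with a replicate block in the fit (edgeR adjusted p = 0.0441).

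Genes usually described in liver moved in both directions. Of 32 liver-type plasma protein and retinoid genes 12 rose and 11 fell, with a median of 0.76 (15 and 4 with library totals alone). Ttr, the transthyretin gene long known in islets, had 751, 923, 854 and 1148 CPM in A, against 163, 146, 161 and 142 CPM in N, and Rbp4, its retinol-binding partner, 1875, 1481, 2052 and 1617 CPM in A, against 108, 135, 118 and 100.2 CPM in N. Both rose without overlap, by 2.58 (SE 0.18) and 3.93 (SE 0.16). Bco1, which cleaves carotene to retinal, had 13.9, 17.6, 26.4 and 30.1 CPM in A, against 1.63, 1.15, 1.57 and 1.03 CPM in N. Serpina1a, an antitrypsin gene with near-identical copies whose reads may be shared, had 11.7, 5.09, 12.5 and 8.27 CPM in A, against 0.289, 0.0396, 0.229 and 0.224 CPM in N. Aldh1a2, which makes retinoic acid in mesenchyme and mesothelium, went the other way with 1.404, 4.01, 3.903 and 4.48 CPM in A, against 25.2, 43.3, 39.1 and 38.2 CPM in N (log2 change -3.395, SE 0.46, edgeR adjusted p = 6.65e-05), beside mesothelium markers of which 9 of 10 fell, Aldh1a2 among them.

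Related genes that serve the same reaction or step were called in opposite directions in several families, a pattern collected after the values were seen. Beside the Pdk, aspartate-glutamate carrier and arginase pairs it holds for the monoamine oxidases, with Maob at 83.7, 115, 99.3 and 95.7 CPM in A, against 36.1, 28.4, 31.1 and 21.5 CPM in N and Maoa at 21.02, 17.48, 21.5 and 18.4 CPM in A, against 40.6, 36.7, 38.7 and 41.9 CPM in N. Maob rose by 1.75 (SE 0.15) and Maoa fell by 1.01 (SE 0.13). It also holds for Rab27a, a GTPase of endocrine granules, which rose with 114, 97.3, 113 and 113 CPM in A, against 34.96, 25.9, 38.4 and 23.4 CPM in N, and Rab27b, which fell with 17.1, 22.95, 12.4 and 18.8 CPM in A, against 59.9, 36.99, 74.8 and 58.4 CPM in N. Which cells of N carried Rab27b or Maoa cannot be told from these libraries. Related genes that moved together, such as Hk1 and Hk2, which both fell, were not counted. Of all genes tested 23.8% rose and 21.3% fell, so opposite calls within some pairs are not unusual.

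**Figure D5:**
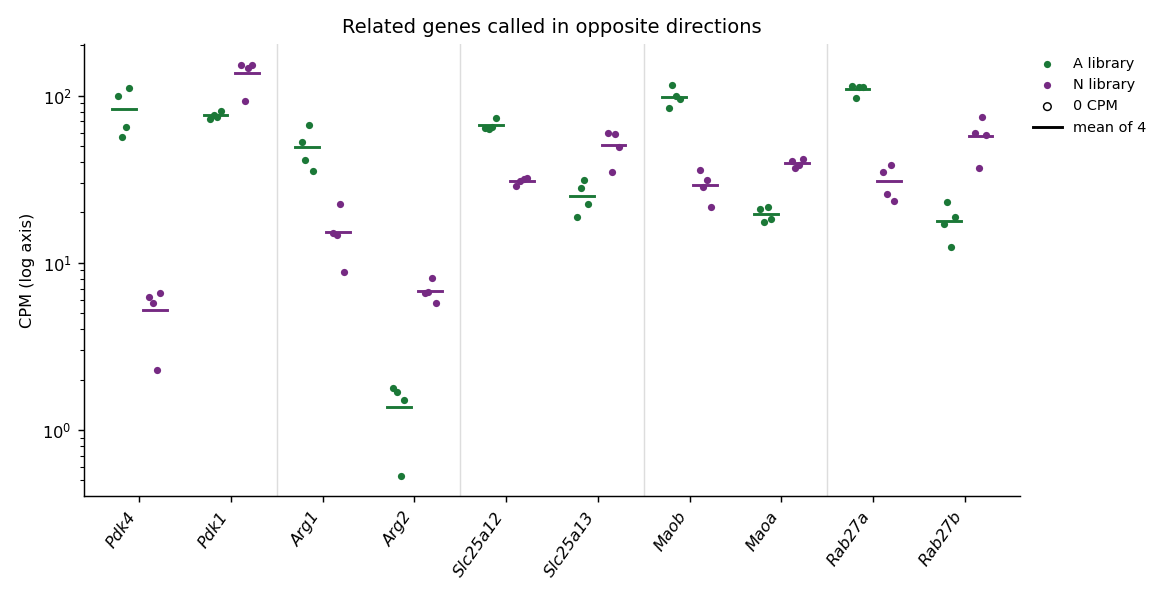
Points are libraries of A (green, left of each pair) and N (purple), bars their means, on a log axis of CPM; an open circle is a library at 0, and grey lines set off the families. In each family 1 member is higher in A (Pdk4, Arg1, Slc25a12, Maob, Rab27a) and the other member is lower in A, with no overlap in any pair of groups.

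Cell cycle genes were lower in A. Of 32 tested 0 rose and 28 fell, with a median of -0.92; with library totals alone 2 rose and 13 fell. Mki67, a marker of dividing cells, had 17.8, 17.9, 12.5 and 28.4 CPM in A, against 61.9, 62.3, 58.6 and 64.9 CPM in N (log2 change -1.69, SE 0.21, edgeR adjusted p = 2.94e-05), and Ube2c, which ends mitosis, 26.4, 28.9, 24.4 and 28.1 CPM in A, against 84.6, 93.5, 109 and 69.6 CPM in N. Top2a, a mitotic topoisomerase, averaged 58.3 ± 9.98 CPM in A and 124 ± 15.6 CPM in N. All A libraries lay below all N libraries in these 3. Mcm2, a helicase subunit of DNA replication, had 92.4, 116, 102 and 106 CPM in A, against 137, 92.9, 136 and 127 CPM in N and was not called, although it was lower without N replicate 2 (log2 change -0.36, edgeR adjusted p = 0.0139). Ccnd2, a D-type cyclin of islets, rose with 356, 391, 389 and 352 CPM in A, against 278, 193, 243 and 269 CPM in N (log2 change 0.599, SE 0.13), and Cdk6, its kinase partner, fell with 11.2, 7.96, 14.2 and 11.3 CPM in A, against 25.8, 16.8, 21.6 and 19.2 CPM in N; the fall of Cdk6 was not called with library totals alone or in the mm10 table. Erythroid cells, some of which divide in the fetus, were the marker group most depleted in A, at 1.17% of their N share, and their part was not tested. Of 15 cyclins and cyclin-dependent kinase inhibitors 4 rose and 7 fell (7 and 0 with library totals alone). Ribosomal protein genes were lower too, with 76 of 77 down and a median of -0.85, and 17 down with library totals alone.

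The Notch pathway was lower as well, with 3 of 19 genes up, 11 down and a median of -1.23 (3 and 6 with library totals alone). Mesenchyme and endothelium markers had medians of -1.58 and -1.92 in the same libraries, and their part in these falls was not tested. Notch3, a receptor of smooth muscle and pericytes, had 12.97, 14.7, 6.08 and 13.3 CPM in A, against 55.2, 55.1, 29.3 and 51.7 CPM in N, and Lfng, which modifies Notch receptors, 11.3, 13.1, 18.2 and 15.98 CPM in A, against 62.5, 31.1, 65.8 and 60.7 CPM in N. Dll3, a ligand-like protein of neuroendocrine cells, rose instead, with 13.7, 6.03, 16.5 and 5.58 CPM in A, against 1.63, 0.515, 1.57 and 0.77 CPM in N (log2 change 3.22, SE 0.48, edgeR adjusted p = 0.000146). Replicates 1 and 3 were high and replicates 2 and 4 low in both groups. Mfng, a relative of Lfng, rose by 0.71 (SE 0.20), at 25.96 ± 4.305 CPM in A and 15.9 ± 3.96 CPM in N.

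Receptors for hormones and nutrients were gained broadly. Of 28 tested 16 rose and 2 fell, with a median of 1.87 (19 and 1 with library totals alone), and 1 fell without A replicate 4 or N replicate 4. Gpr119, a receptor for lipid amides on endocrine cells, had 105, 68.6, 87.1 and 98.8 CPM in A, against 1.95, 2.53, 1.15 and 0.994 CPM in N (log2 change 5.77, SE 0.31, edgeR adjusted p = 1.43e-08). Ffar1, a receptor for long-chain fatty acids, had 25.5, 29.3, 27.3 and 34.6 CPM in A, against 3.83, 4.04, 3.67 and 2.598 CPM in N, and Ffar4, another, 101, 75.9, 101 and 88.1 CPM in A, against 9.11, 6.97, 8.37 and 6.61 CPM in N. No library of N came near the A levels. Sstr2, the main somatostatin receptor of alpha cells, had 47.2, 23.7, 58.8 and 48.4 CPM in A, against 5.13, 3.52, 6.88 and 4.62 CPM in N, and Sstr3, another, 49.7, 39.5, 34.1 and 57.5 CPM in A, against 5.28, 3.88, 3.21 and 2.98 CPM in N. Casr, the calcium-sensing receptor, averaged 22.6 ± 8.25 CPM in A and 2.46 ± 0.954 CPM in N, and Oxtr, the oxytocin receptor, 25.5 ± 3.23 CPM in A and 2.68 ± 0.37 CPM in N. Gcgr, the receptor for glucagon itself, had 4.68, 3.02, 2.44 and 1.72 CPM in A, against 1.34, 5.11, 1.87 and 1.38 CPM in N; the groups overlapped and the gene was not called (edgeR adjusted p = 0.639). Igf1r, the receptor for insulin-like growth factor, fell by 1.07 (SE 0.18), at 29.2 ± 6.92 CPM in A and 61.2 ± 8.45 CPM in N.

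In the more differentiated alpha cells of group B, which were compared with the same N libraries and so give no independent test, levels of the leading genes were as follows. Irx2 averaged 286 ± 23.7 CPM in B and 176 ± 35.6 CPM in A, Gria2 43.9 ± 8.94 CPM in B and 36.7 ± 5.94 CPM in A. Their changes against N were 7.40 and 3.31 for B. Rest averaged 5.31 ± 2.11 CPM in B and 22.1 ± 7.58 CPM in A, beside mesenchyme marker shares of 0.117% ± 0.0575 in B and 0.876% ± 0.425 in A, whose part was not tested, and Gls2 4.34 ± 1.52 CPM in B and 5.75 ± 0.318 CPM in A. Snap25 stood at 64.04 ± 7.97 CPM in B and 61.6 ± 7.68 CPM in A.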

How the data were processed

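The authors deposited tables of estimated counts and TPM per gene for all 12 libraries, aligned to GRCm39 with the reporter sequences added, and a second table on mm10. The submitters' processing notes list STAR 2.5.2b, DRAGEN and both builds without roles; the counting tool, strandedness, strain and sex are not given in the sources used here. RNA was taken with RNeasy mini plus and made into libraries with a SMARTER mRNA-Seq kit, per the labels' protocols. The deposited TPM are used only for levels between genes within A.

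The deposited estimated counts were rounded and tested with edgeR 4.0.16 in R 4.3.3 (filterByExpr, TMM factors, quasi-likelihood F-test, all 12 libraries in 1 fit by group, contrast A against N, Benjamini-Hochberg adjusted p under 0.05), with a test for folds over 2. The SE is the change divided by the square root of its F statistic. Shares of counts were compared by an exact permutation test. DESeq2 1.42.0 was an alternative, beside the settings of the closing section. The procedure was tested on simulated data.

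Libraries of A and N with the same number deviated together (Pearson r 0.177, 0.267, 0.342 and 0.252 across 10752 genes, which are not independent), so the numbers were taken to pair the samples and a replicate block was an alternative. Replicates came from different mothers, per the series' design text, and none was a copy of another.

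The comparison, the gene lists and the tests were chosen with earlier results of these data known. Genes were named by a rule: Gcg and the reporter, the 15 highest and 10 lowest changes among called genes without overlap and with mean log2 CPM no lower than 3, and per list its first gene, the 4 members with the smallest p and 2 abundant members that were not called or went against the majority, with similar rules for marker lists and gene families. Some genes the rule names are not reported here. Other genes were chosen after their values were seen: Acly, Arg1, Arg2, Asns, Casr, Chgb, Foxa2, Gls2, Hk2, Insm1, Kcnj11, Nkx2-2, Ogdhl, Osbp2, Pdk1, Phgdh, Pou3f4, Ppy, Rab27a, Rab27b, Robo2, Scd2, Scg2, Slc18a1, Slc25a13, Slc30a8, Sptbn4, Sstr2, Sstr3 and Top2a.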

Additional observations from a re-analysis of the deposited data

Results flagged for a closer look

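In 354 sets of 4 values, 1 for each gene or share and group, 33 had 1 library lying far from the other 3 by Dixon's criterion, where chance flags about 1 in 20 sets. None of these was weighed. Values are CPM unless a percent is given. N replicate 2 was also the N library with the fewest acinar counts, 11%, and the most erythroid counts, 23%. A replicate 1 was high for Mfng at 32.4 (others 23.3 to 24.1). A replicate 2 was high for Ssr3 at 442 (others 352 to 355). A replicate 2 was low for Kcnj11 at 44.96 (others 57.8 to 59.8) and Rab27a at 97.3 (others 113 to 114). A replicate 3 was low for Robo2 at 25.9 (others 51.2 to 56.03). A replicate 4 was high for Cux2 at 11.9 (others 8.05 to 8.52), Gcg at 21975 (others 12560.0 to 13980.0) and Slc7a14 at 181 (others 136 to 139). A replicate 4 was low for Atp6v0e at 86.3 (others 109 to 113) and the erythroid share at 0.0421% of counts (others 0.204 to 0.224). N replicate 1 was low for Ghrl at 11.8 (others 21.6 to 22.2). N replicate 2 was high for Gcgr at 5.11 (others 1.34 to 1.87), Sec11c at 176 (others 108 to 118) and Stmn1 at 268 (others 169.7 to 183). N replicate 2 was low for Acly at 375 (others 606 to 648), Asns at 209.7 (others 473 to 510.2), Atp6v1a at 70.4 (others 99.8 to 104), Ddost at 825 (others 908 to 914), Ldha at 834 (others 1124 to 1160.0), Lfng at 31.1 (others 60.7 to 65.8), Pdk1 at 93.3 (others 146 to 153), Ptf1a at 37.8 (others 85.3 to 89.1), Rab3d at 174 (others 413 to 459), Rest at 45.1 (others 55.6 to 57.4), Rrbp1 at 186 (others 330.0 to 345), Sec61a1 at 475 (others 1021 to 1074), Slc38a10 at 257 (others 483 to 519) and Tmed4 at 128 (others 162 to 167). N replicate 3 was high for Ap3b2 at 12.1 (others 10.4 to 10.7), Nefm at 12.2 (others 7.95 to 8.28) and Pou3f4 at 2.904 (others 1.45 to 1.57). N replicate 3 was low for Notch3 at 29.3 (others 51.7 to 55.2). N replicate 4 was low for Cacna1h at 12.6 (others 17.1 to 17.3).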

How the results depend on the processing

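Each named gene, called or not and printed or not, was compared with the main fit once per alternative. Of these comparisons, 6434 kept their side of the threshold and any called direction, 295 lost a call, 85 gained one and 15 turned in sign. Of the single-gene calls, 112 were lost when a fold over 2 was tested; with library totals alone 42 were lost, 19 gained and 14 turned. With library totals alone, 8243 genes were higher and 1386 lower, 2517 changed by more than 2-fold, and the higher members numbered 121 for secretion and 146 for metabolism; in the same setting Arf1 (0.55), Atp6v1a (0.49), Copa (0.48), Cs (0.40), Ctsl (0.41), E2f1 (0.51), Ghr (0.14), Hid1 (0.53), Marcks (0.14), Mcm2 (0.32), Ptbp1 (0.50), Rpn2 (0.57), Sar1a (0.40) and Slc38a10 (0.48) had positive changes in place of negative ones. This follows from the construction of that setting, which moves the median of all genes to 0.545. When a fold over 2 was tested, 1566 genes passed, 1053 higher and 513 lower, with 50 higher members for secretion, 47 for neuronal-like genes, 27 for metabolism and 15 for cell state. The share of higher calls was 85.6% with library totals alone and 52.8% with TMM. Amy2a5, an amylase gene, had a change of -1.94 in the GRCm39 table and was called lower, but of 0.0221 in the mm10 table, and the cause was not tested. Without 1 library (or without A replicate 3 and N replicate 3 together, an alternative chosen after seeing the data because that A library had the fewest genes detected), 6458 to 7477 genes were called, 3511 to 4030 higher and 2947 to 3469 lower, and 1245 to 1594 changed by more than 2-fold. In the fits without 1 library alone, the higher members numbered 27 to 31 for transcription factors, 75 to 78 for secretion, 74 to 79 for neuronal-like genes, 57 to 65 for metabolism and 21 to 25 for cell state. With the replicate block, which pairs libraries of the same number, 8267 genes were called in the fit of all libraries and 7678 in that of A and N alone, and the theme counts stayed within 1.5 times. DESeq2 called 3863 genes higher and 4429 lower. Depth limits genes below about 1 CPM, where a few counts decide the change; N is a mixed pool, so levels in any 1 of its cell types are not known, and 4 replicates of each group give 0.0286 as the smallest exact p.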

Other observations

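Chromosome X held an above-average share of the strongest gains, a pattern picked out after the values were seen. Of 606 tested genes on X, 40 (6.6%) were called higher by over 3 on the log2 scale, against 431 (2.5%) of all tested genes. The next chromosomes in order were 12 with 3.35% and 8 with 3.32%. At a change over 1 the count on X was 113 (18.6%, against 11.2% of all genes), the share called higher at any size was 27.7% on X and 23.8% of all genes, and the median change on X was -0.12. The genes include Cltrn, Gpr119, Wnk3 and Slc38a5, from the granule, receptor, kinase and transporter groups, and Pcsk1n. Their values are given above. No test was made of this pattern, and the labels do not give the sex of the embryos. Summed Y-linked genes (Ddx3y, Eif2s3y, Kdm5d and Uty) stood at 0.488 CPM in A replicate 3 and 0.191 CPM in N replicate 3, against 54.4 to 156 CPM in the other A libraries and 44.3 to 112 CPM in the other N libraries.

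Among the gene families grouped by symbol, collagens had 25 of 42 members lower and 1 higher (11 lower and 2 higher with library totals alone), integrins 16 of 27 lower and 2 higher (10 lower and 4 higher in that setting), and Hox genes 8 of 16 lower and 0 higher (2 lower in that setting). The lower Hox genes numbered 3 without A replicate 1, A replicate 4, N replicate 2 or N replicate 4, 4 without N replicate 1, and 5 in the mm10 table. RFX factors, which bind the promoters of ciliary and endocrine genes, had 4 of 7 higher and 0 lower (6 and 0 with library totals alone). The mitochondrial carriers of the SLC25 family had 16 of 43 higher and 13 lower, but 24 higher and 2 lower with library totals alone. The lower SLC25 members numbered 8 without N replicate 3. Aldehyde dehydrogenases had 9 of 18 lower and 1 higher (4 and 3 with library totals alone).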
